A study of Mus musculus with 10 samples.

Results

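The transcripts of 10 enzymes that carry glucose to lactate (Gapdh, Hk2, Gpi1, Pfkl, Pfkp, Aldoa, Tpi1, Pgk1, Pkm and Ldha) were followed across 10 mouse tumors; they are 10 of 24202 gene rows. They were chosen by symbol, around the wide spread of Gapdh between tumors, a pattern already seen in these values. That spread is therefore given as a description, with no test. The tumors grew from MB-49 cells, a mouse bladder cancer line, of which 100000 were injected subcutaneously at the right flank rather than in the bladder. The PIIO-1 group held 5 tumors from mice given 200 ug of PIIO-1, an antibody to GARP, into the peritoneum on days 6 and 9. The PBS group held 5 tumors from mice labelled with PBS as treatment. Mice of both groups carried the hLrrc32 knock-in, a human form of the gene for GARP. Every tumor was collected on day 10 and made into a suspension of single cells before RNA was isolated from the whole tumor, so tumor and host cells were measured together. Neither the age of the mice nor separate animals for each tumor are stated in the labels, so p-values measure the spread between these samples.

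Glycolysis splits glucose into pyruvate in the cytosol and yields ATP and NADH, and lactate dehydrogenase then turns pyruvate into lactate and restores NAD+. Fast-growing tumors often run it at a high rate even where oxygen is present. In low oxygen, hypoxia-inducible factors bind short elements in many of these genes and raise their transcription. Gapdh is also widely used as a reference transcript to which other genes are scaled.

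Much of the Gapdh transcript, and of the Pgk1 transcript, also stands elsewhere among annotated genes. The stretch below shows this for 60 coding bases of Gapdh (coding bases 355 to 414; gene at chr6:125161715-125166467, minus strand) and of Gm5559, a copy at chr5:95861714-95862715 on the plus strand. Both are written 5′ to 3′ from the GENCODE M21 transcripts of build GRCm38, and the capital marks the only mismatch in 1002 compared bases. It is T31A, counted from 1 at the 5′ end of the stretch, with the base of Gapdh first.
Gapdh: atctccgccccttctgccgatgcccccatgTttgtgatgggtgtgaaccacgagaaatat
Gm5559: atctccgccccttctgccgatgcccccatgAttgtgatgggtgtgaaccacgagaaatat
Of the 1321 windows of 100 bases in the longest coding Gapdh transcript, 78.0% occurred letter for letter in 86 other annotated genes, 69 of which have a row in the table. A read confined to such a window has more than one perfect match among annotated transcripts, and how the authors' counting treated such reads is not given in the sources used here. For Pgk1 the share was 67.0% (3 other genes), 16.0% for Pfkp (all in Pitrm1, a gene on the opposite strand that overlaps it), 9.82% for Pkm, 7.40% for Gpi1, 1.28% for Ldha and 0.796% for Tpi1. It was 0% for Hk2, Pfkl and Aldoa. In windows of 50 bases the share was 82.5% for Gapdh, 68.0% for Pgk1, 34.4% for Pkm and 25.3% for Gpi1. At that length it was 17.1% for Pfkp, 16.6% for Ldha, 13.5% for Aldoa, 7.51% for Tpi1, 0.054% for Pfkl and 0% for Hk2. Pgk1, with the next largest share after Gapdh, had an SD of log2 values over the tumors of 0.22, against 1.14 for Gapdh. The genes are not alike in their copies (at least 95% identity). Rows for copies of Pgk1 summed to 311 normalized counts at most, far below Pgk1 itself. Those of Gapdh summed to more than Gapdh in PIIO-1 tumors 1 and 4 and PBS tumor 2. The part of shared sequence in either spread was not tested.

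Promoters of Gapdh and of Pgk1 and Ldha, a pair that moved together across the tumors, are printed for comparison, since the letters bound by hypoxia-inducible factors can be searched in them. Each runs 5′ to 3′ on the strand of its gene, from 250 bases before to 50 bases after the start, from RefSeq on GRCm38.p6. Capitals mark ACGTG or GCGTG on either strand, so that CACGT and CACGC are the same letters read from the other strand; CACGTG holds one match on each strand, and these overlap. The Gapdh promoter (chr6:125165724-125166023, minus strand) held 3 matches, that of Pgk1 (chrX:106186850-106187149, plus strand) held 2, and the first of the annotated Ldha promoters (chr7:46845554-46845853, plus strand) held 7, including 2 copies of CACGTG.
Gapdh: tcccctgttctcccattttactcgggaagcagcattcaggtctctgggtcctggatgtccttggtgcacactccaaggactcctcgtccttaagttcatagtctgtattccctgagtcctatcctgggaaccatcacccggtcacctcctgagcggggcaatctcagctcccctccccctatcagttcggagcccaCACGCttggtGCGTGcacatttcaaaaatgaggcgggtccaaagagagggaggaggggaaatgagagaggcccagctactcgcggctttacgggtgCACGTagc
Pgk1: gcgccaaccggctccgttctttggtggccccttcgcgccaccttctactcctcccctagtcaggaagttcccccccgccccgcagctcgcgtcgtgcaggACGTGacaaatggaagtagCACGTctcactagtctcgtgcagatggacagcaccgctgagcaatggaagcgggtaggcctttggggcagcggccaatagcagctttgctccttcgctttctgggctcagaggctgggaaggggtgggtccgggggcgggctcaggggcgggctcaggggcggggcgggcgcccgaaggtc
Ldha: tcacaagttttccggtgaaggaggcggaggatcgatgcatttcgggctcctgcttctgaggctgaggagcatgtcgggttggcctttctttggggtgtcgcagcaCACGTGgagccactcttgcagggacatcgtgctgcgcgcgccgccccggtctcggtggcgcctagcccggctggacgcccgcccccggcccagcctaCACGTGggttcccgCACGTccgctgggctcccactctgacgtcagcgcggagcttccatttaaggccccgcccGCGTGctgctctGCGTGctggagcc
Among all 32851 promoters of this length, 43.8% held at least 1 match, 8.93% held 3 or more and 7.15% held CACGTG. The promoters of Pfkp, Hk2 and Pfkl held 4, 2 and 1 matches, and those of Gpi1 and Tpi1 held 0. Aldoa promoters 1, 2 and 3 held 0, 1 and 1 matches, and Pkm promoters 1 and 2 held 0 and 2. The second Ldha promoter held 2 matches and no CACGTG. A match describes the letters in this window only.

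Gene reads per library numbered from 18843192 (PBS tumor 4) up to 37581521 (PBS tumor 3). PIIO-1 tumor 5 and PBS tumor 4 lay farthest from the centre of the first principal components, and PIIO-1 tumor 5 had the most mitochondrial reads (3.12% of its total, where the rest had 0.986% to 2.22%). The sum of all 8 markers of epithelium ranged from 81048 to 101711 in PIIO-1 tumors and from 80890.0 to 97581 in PBS tumors. Of these markers, 6 of 8 passed the filter of a mean of at least 10 normalized counts. The urothelial markers Upk2 and Upk3a stayed below the filter. All 10 enzymes passed that filter, as did 16767 of the 24202 rows. Levels below are normalized counts, and differences are PIIO-1 minus PBS on the scale of log2(normalized count + 1) with the standard error (SE) from limma.

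Gapdh, the enzyme that oxidizes glyceraldehyde phosphate and makes the NADH of the pathway, was the most variable of the 10 transcripts. It stood at 1951, 3025, 14156, 1809.9 and 9101 normalized counts in PIIO-1 tumors 1 to 5, against 6627.5, 1608, 6618, 5128 and 10607 in PBS tumors 1 to 5. High and low tumors occurred in both groups: PIIO-1 tumors 3 and 5 and PBS tumor 5 were high, PIIO-1 tumors 1, 2 and 4 and PBS tumor 2 were low, and the groups overlapped. The highest tumor exceeded the lowest 8.80-fold over all tumors, 7.82-fold within PIIO-1 and 6.60-fold within PBS. The coefficient of variation was 90.8% in PIIO-1 tumors and 53.0% in PBS tumors. The standard deviation of its log2 values over the 10 tumors was 1.14. Only 93 of the other 16766 genes tested (0.555%) had one at least as large. Of the 2141 genes with a mean within 2-fold of that of Gapdh, 1 did, namely Hba-a1, a hemoglobin gene of red blood cells, and the median of those genes was 0.099.

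**Figure D1:**
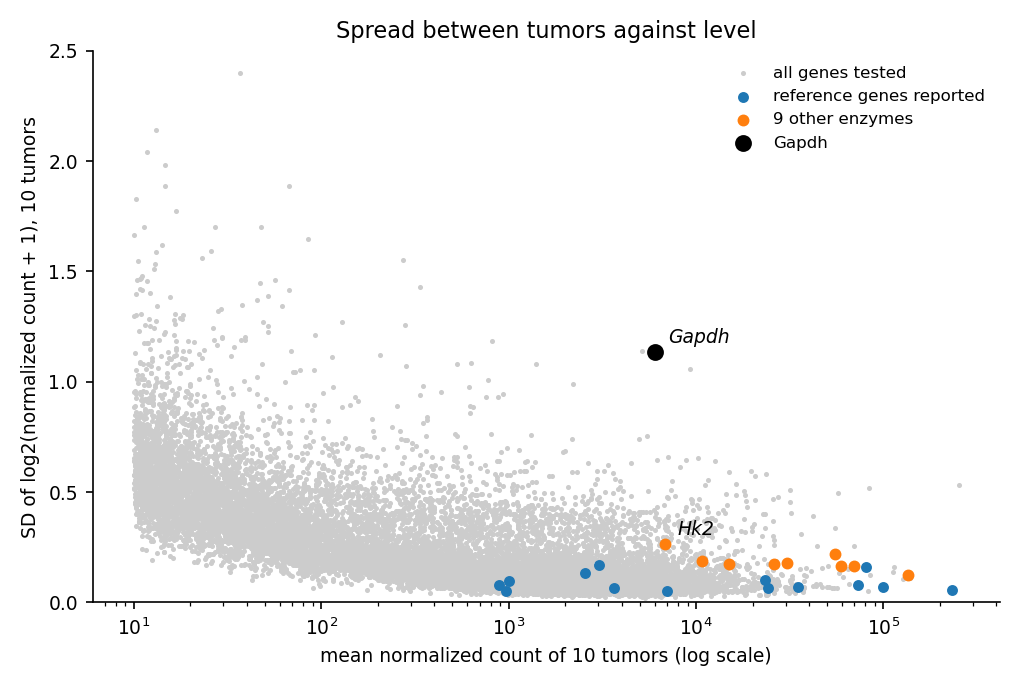
Standard deviation of log2(normalized count + 1) over the 10 tumors against the mean normalized count (log axis) for each gene tested. Gapdh lies at 1.14, the 9 other enzymes between 0.12 and 0.27, and the reference genes drawn, Tfrc the highest of them, at 0.17 or less.

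The other 9 enzymes varied far less, with standard deviations of 0.12 (Pkm) to 0.27 (Hk2) and a highest tumor 1.36-fold (Pkm) to 1.73-fold (Hk2) above the lowest. At the entry of the pathway, Hk2, the hexokinase that traps glucose as its phosphate (chr6:82725025-82774454, minus strand), stood at 7219.8, 5905, 8680.3, 8086 and 8373 normalized counts in PIIO-1 tumors, against 5469.7, 6406, 6165, 5029 and 6921 in PBS tumors. Of the PIIO-1 tumors, 4 lay above every PBS tumor, and PIIO-1 tumor 2 lay within the PBS range. Its difference was 0.35 (SE 0.11, 95% interval 0.10 to 0.59). The limma test gave an unadjusted p of 0.00997 and a Benjamini-Hochberg adjusted p of 0.837, so the difference did not pass the threshold of 0.05. In bulk RNA, more cells that express a gene and more RNA per cell cannot be told apart.

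Gpi1, which isomerizes glucose phosphate to fructose phosphate (chr7:34201330-34230336, minus strand), stood at 28704, 24548, 31167, 24876 and 24958 in PIIO-1 tumors, against 23078, 27414, 28045.5, 20543 and 27839 in PBS tumors. The groups overlapped across most of their range, and the difference was 0.085 (SE 0.10). The noncoding gene Gm26762 shares 741 exon bases with Gpi1 on the opposite strand, and reads there could not be told apart. Pfkl and Pfkp encode the liver and platelet forms of phosphofructokinase, which commits sugar to the pathway. Pfkl (chr10:77986947-78010083, minus strand) stood at 12016, 10061, 13682, 10343 and 10719.6 in PIIO-1 tumors, against 8705, 10833, 10823, 9008 and 11329 in PBS tumors. PBS tumors 1 and 4 lay below every PIIO-1 tumor, PIIO-1 tumors 1 and 3 lay above every PBS tumor, and the difference was 0.16 (SE 0.10). Pfkp (chr13:6579768-6648777, minus strand) stood at 14939, 13531, 17014, 17552 and 16917 in PIIO-1 tumors, against 12760.2, 14453, 14815, 12323 and 15244 in PBS tumors. Here PIIO-1 tumors 3, 4 and 5 lay above every PBS tumor and PIIO-1 tumors 1 and 2 among them. The Pfkp difference was 0.20 (SE 0.086, 95% interval 0.011 to 0.39), with an unadjusted p of 0.0397 and an adjusted p of 0.837 by limma. Counts for Pfkp may include reads of Pitrm1, which shares 748 exon bases with it on the opposite strand, because the strand setting is not given.

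Aldoa, the aldolase that cleaves the sugar bisphosphate (chr7:126795234-126800751, minus strand), stood at 62893, 55764, 69781, 57499 and 57326 in PIIO-1 tumors, against 57491.5, 59652, 64243, 45565 and 62903 in PBS tumors. PIIO-1 tumor 3 was highest, PBS tumor 4 lowest, and the other tumors intermingled. The difference was 0.071 (SE 0.10), and it was -0.014 without PBS tumor 4. Tpi1, which interconverts the triose phosphates (chr6:124810586-124814296, minus strand), stood at 33212, 29117, 37809, 31032.5 and 30427 in PIIO-1 tumors, against 24943, 31225, 30494, 24901 and 32069 in PBS tumors. PBS tumors 1 and 4 lay below every PIIO-1 tumor, and the difference was 0.17 (SE 0.096, unadjusted p 0.0983 by limma).

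The enzymes measured after Gapdh were among the most abundant of the 10. Pgk1, which makes ATP from the product of Gapdh (chrX:106187100-106203699, plus strand), stood at 64687, 52748, 70217, 51112 and 49252 in PIIO-1 tumors, against 44962.5, 60159, 57455, 43729.6 and 57619.7 in PBS tumors. PIIO-1 tumors 1 and 3 were above every PBS tumor and PBS tumors 1 and 4 below every PIIO-1 tumor, with a difference of 0.12 (SE 0.13). Pkm, the pyruvate kinase that makes ATP and pyruvate (chr9:59656368-59679375, plus strand), stood at 143903, 126138, 152865, 132487 and 129841 in PIIO-1 tumors, against 127861, 142421, 138285, 112293 and 137197 in PBS tumors. It was the steadiest of the 10, and its difference was 0.060 (SE 0.092). The annotated gene Gm49759, which has no row of its own, shares 767 exon bases with Pkm on the same strand. Reads there could not be told apart. Ldha, the lactate dehydrogenase subunit that favors lactate (chr7:46841475-46855627, plus strand), stood at 80488, 67602, 83250.3, 66281 and 65244 in PIIO-1 tumors, against 59592, 76687, 71396, 59546 and 68938 in PBS tumors. PBS tumors 1 and 4 were again low, and the difference was 0.11 (SE 0.10).

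**Figure D2:**
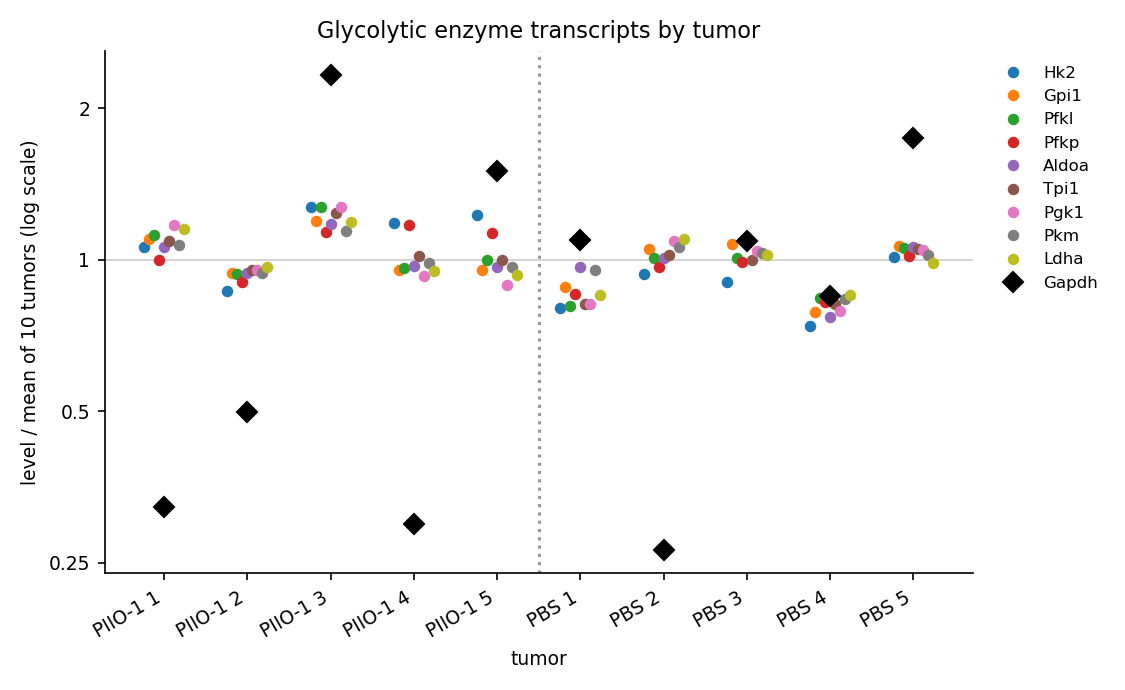
Level of each enzyme transcript in each tumor divided by its mean over the 10 tumors (log axis), PIIO-1 tumors on the left and PBS tumors on the right of the dotted line. Gapdh (diamonds) spans 8.80-fold, and each other enzyme (circles) spans 1.73-fold or less.

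With treatment, 0 of the 10 enzymes passed the limma test at an adjusted p under 0.05, where 0% of all 16767 genes did; edgeR on recovered reads also called 0 enzymes (0% of all genes), and DESeq2 called 0 enzymes (0.0179% of all genes, 3 genes). At an unadjusted p under 0.05 limma counted 2 enzymes, Hk2 and Pfkp, both higher in PIIO-1 tumors, where 5.63% of all genes passed in either direction and 2.86% were higher. edgeR and DESeq2 counted the same 2 enzymes. For 0 of 10 enzymes were the groups free of overlap, against 0.853% of all genes. By sign alone 9 of 10 were higher in PIIO-1 tumors, against 51.1% of all genes; the 9 vary together across tumors, so their signs are not separate observations. The median difference of the 9 was 0.12, and that of all genes was 0.0027. Gapdh, the exception, averaged 6008 ± 5453 in PIIO-1 tumors and 6118 ± 3240 in PBS tumors (SD, n = 5 each). Its difference was -0.30 (SE 0.63), with a 95% interval of -1.67 to 1.08 and an adjusted p of 0.957 by limma. It was 0.011 without PIIO-1 tumor 4, and -0.030 by edgeR.

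**Figure D3:**
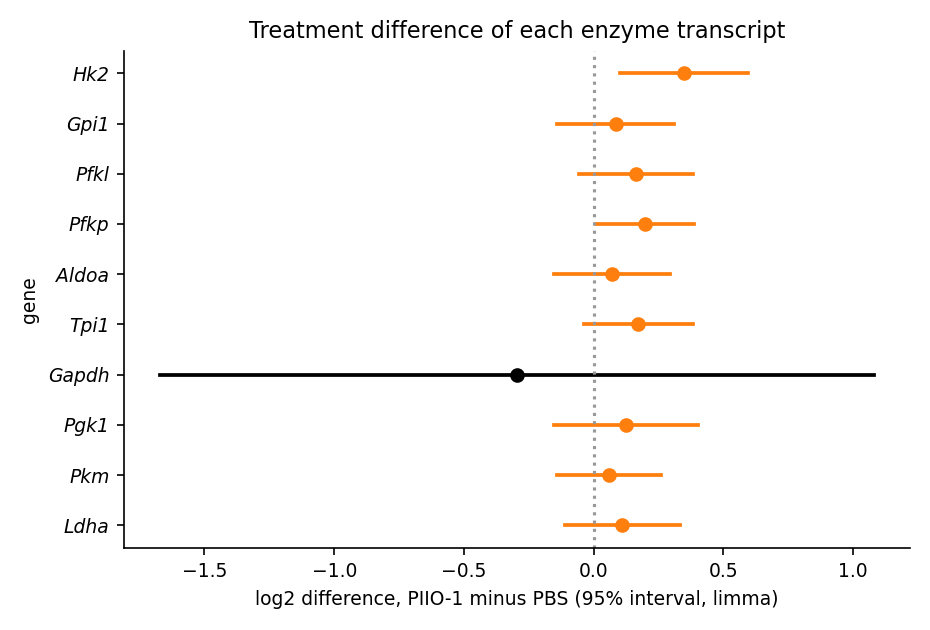
Difference of each enzyme transcript, PIIO-1 minus PBS, on the log2 scale, with points for the limma estimate and lines for its 95% interval. The interval of Gapdh runs from -1.67 to 1.08, and those of Hk2 (0.10 to 0.59) and Pfkp (0.011 to 0.39) lie above 0 before adjustment.

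Across tumors the 9 enzymes moved with each other, while the r of each with Gapdh was low over all 10 tumors and shifted as tumors were left out. Over the 36 pairs among the 9, Pearson r of the log2 values ran from 0.49 (Pfkp with Ldha, Spearman rho 0.42) to 0.98 (Pgk1 with Ldha, rho 0.99, and Pfkl with Tpi1, rho 0.95), with a median of 0.85 over 10 tumors. Hk2 and Pfkp, both of the early steps, had an r of 0.97. The median of the pairs was 0.86 after the group means were removed. PIIO-1 tumor 3 was highest for 8 of the 9 (Pfkp was highest in PIIO-1 tumor 4), and PBS tumor 4, the shallowest library, was lowest for 8 of the 9 (Pfkl was lowest in PBS tumor 1). Both genes of a pair share each library, its depth and its scaling, so the values describe these 10 libraries.

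Gapdh had an r of -0.10 (Ldha; Spearman rho -0.0061) to 0.25 (Aldoa; rho 0.31) with the 9, and a median of 0.11. Over all genes tested the median r with Gapdh was 0.0086 and the range from the 5th to the 95th percentile was -0.47 to 0.46, so each of the 9 lay within it. With Pgk1, the next enzyme in the pathway, r was 0.0089 (rho 0.030). When the tumors farthest from the median of Gapdh (PIIO-1 4 and PBS 2) were left out, the largest r was 0.47 (Pfkp) and that of Ldha was -0.017. The median of the 9 was then 0.24; leaving out PIIO-1 tumor 3 gave -0.21, and leaving out PIIO-1 tumor 1 gave 0.22. Single enzymes shifted more: omitting PIIO-1 tumor 3 gave an r of -0.51 for Ldha and -0.39 for Pgk1. Aldoa reached 0.46 with PBS tumor 4 omitted and 0.60 with PIIO-1 5 and PBS 4 both omitted. PBS tumor 2 shows the contrast in one library: Gapdh was lowest there, at 0.375% of the summed counts of the 9 other enzymes, while Pkm and Ldha were each the highest of the PBS group. In PIIO-1 tumor 3, Gapdh reached 2.92% of that sum.

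**Figure D4:**
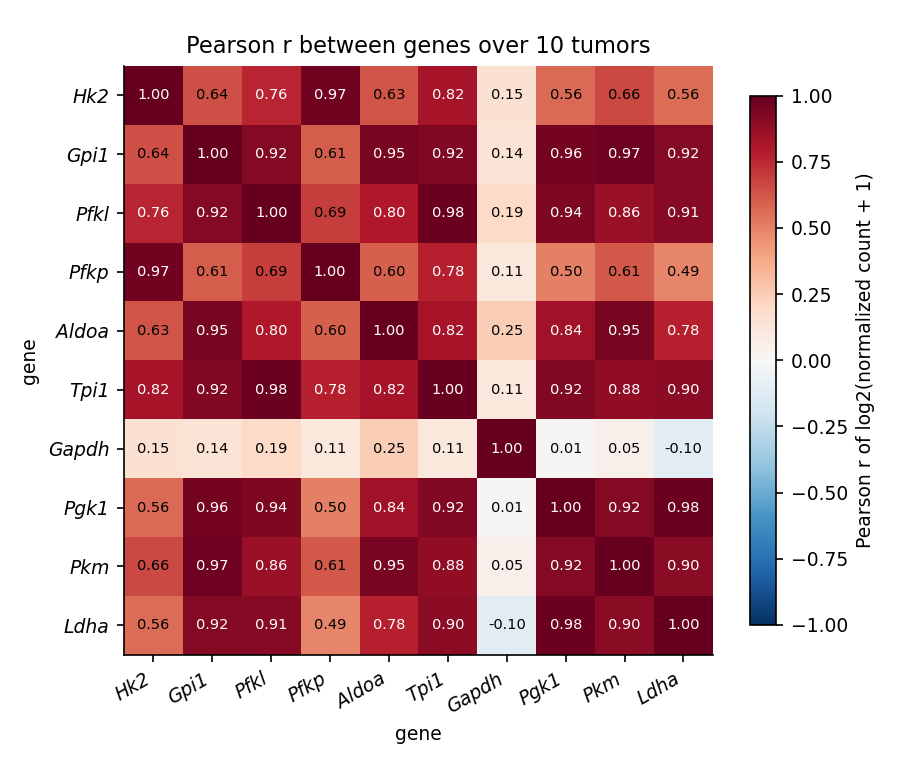
Pearson r between each pair of the 10 enzyme transcripts over the 10 tumors, from log2(normalized count + 1), with the color scale from -1 to 1. The 36 pairs among the other 9 enzymes lie between 0.49 and 0.98, and the row of Gapdh lies between -0.10 and 0.25.

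Per kilobase of the longest coding transcript, the median level over tumors ran in the order Pkm (55445 normalized counts per kilobase), Aldoa (37815), Ldha (37615), Pgk1 (30193), Tpi1 (19143), Gpi1 (9079.7), Gapdh (4136), Pfkp (3589), Pfkl (2888) and Hk2 (1209). Aldoa and Ldha are neighbors that do not differ beyond their spread. The level of Gapdh ran from 1133 to 9969 per kilobase, a range that takes in the medians of Gpi1, Pfkp, Pfkl and Hk2. Over all annotated exon bases Pgk1 stood second and Pfkp last. The counts in the Gapdh row were thus below those of Tpi1 and Pgk1, the steps before and after it, in each of the 10 tumors by the transcript measure. Of the 100-base windows of Gapdh, 78.0% are shared with other genes, and how such reads were counted is not given. The row may therefore understate the Gapdh transcript, and its place in this order is that of the row only.

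The near-identical copies of Gapdh did not follow it. Rows for 67 annotated copies with at least 95% identity over at least 200 bases summed to 3015, 2398, 3270.1, 2796 and 2725 normalized counts in PIIO-1 tumors, against 2624, 3479.9, 2987, 2653 and 2983 in PBS tumors. The sum was highest in PBS tumor 2, where Gapdh itself was lowest. It varied 1.45-fold, and its r with Gapdh was -0.037 (rho -0.091; 0.41 without the 2 tumors farthest from the median of Gapdh). Its r with the mean log2 value of the 9 other enzymes was 0.69. Of the copies, 24 had a mean of at least 10, and the highest were Gm7336 with a mean of 1221 and Gm5559, shown above, with 588. With the copies added, the Gapdh total still varied 3.78-fold, between 4606 (PIIO-1 tumor 4) and 17426 (PIIO-1 tumor 3), and its SD of log2 values was 0.68. The part of read assignment among copies in the spread of Gapdh was not tested.

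**Figure D5:**
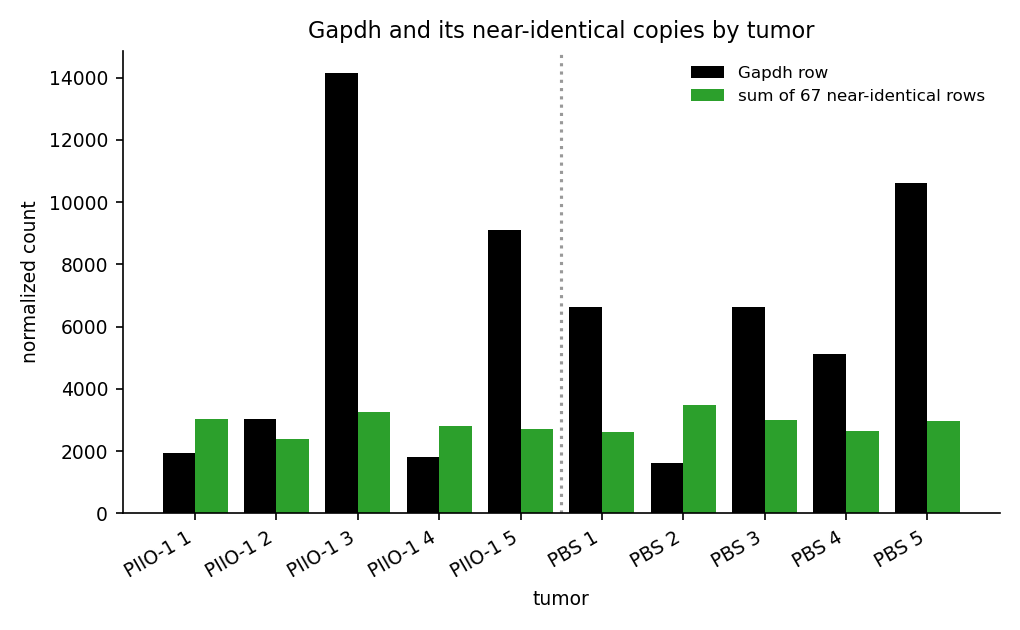
Normalized counts of the Gapdh row (black) and of the sum of 67 near-identical rows (green) in each tumor, PIIO-1 tumors left of PBS tumors. The Gapdh row runs from 1608 to 14156 and the sum of copies from 2398 to 3479.9.

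Gapdh had a larger spread between tumors than the other common reference genes of expression studies reported here. Tfrc, the transferrin receptor, had an SD of 0.17, B2m, the light chain of MHC class I, one of 0.16, and Sdha, a subunit of succinate dehydrogenase, one of 0.051. The median SD of the 9 was 0.18 undivided and 1.13 after division by Gapdh, against 0.21 after division by Actb and 0.15 after division by Rplp0. The difference of Hk2 was 0.64 when divided by Gapdh, with SDs between tumors of 1.24 in PIIO-1 and 1.03 in PBS. When divided by Actb it was 0.35, with SDs of 0.21 in PIIO-1 and 0.19 in PBS. By sign, all 9 enzymes were higher in PIIO-1 tumors when divided by Gapdh, Actb or Rplp0, and 5 of the 9 were when divided by Tfrc, so the direction of some of them depends on the divisor.

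Other genes of the pathway were read from lists. Of 19 further glycolysis genes 16 were tested: 11 were higher and 5 lower in PIIO-1 tumors by sign, with a median difference of 0.051, and 0 passed at an unadjusted p under 0.05 by limma. Pgam1 and Eno1, the steps between Pgk1 and Pkm, were named after their values were seen. Pgam1 averaged 20024 ± 2021 in PIIO-1 tumors and 18521 ± 2153 in PBS tumors, and Eno1 averaged 86252 ± 7385 in PIIO-1 tumors and 83797 ± 7777 in PBS tumors (SD, n = 5 each). Their r with Gapdh was 0.013 and 0.067, and their r with the mean of the 9 was 0.98 and 0.91. Near-identical copies of these genes were not examined. By the rule for naming, Aldoc, the brain form of aldolase, differed by 0.34 (SE 0.17), and Ldhc, the testis form of lactate dehydrogenase, by 0.60 (SE 0.39). Ldhc was low, at 15.9 to 33.9 normalized counts in PIIO-1 tumors and 7.35 to 37.5 in PBS tumors. Its highest value was in PBS tumor 4, the shallowest library. The highest r with Gapdh in this list were those of Ldhb (0.56), at a mean of 45.0 in PIIO-1 and 40.0 in PBS tumors, and Bpgm (0.39).

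All 7 glucose and lactate transporter genes were higher in PIIO-1 tumors by sign, against 51.1% of all genes, with a median difference of 0.21. At an unadjusted p under 0.05 limma counted 2, against 5.63% of all genes, and 0 passed after adjustment. Slc2a1, the GLUT1 glucose transporter, stood at 14093, 10158, 18003, 13965 and 15277 in PIIO-1 tumors, against 9555, 12363, 11735, 8522 and 12904 in PBS tumors. PIIO-1 tumor 2 lay among the PBS tumors and the other PIIO-1 tumors above them all. Its difference was 0.37 (SE 0.15), and its r with the mean of the 9 enzymes was 0.92. Slc2a3, the GLUT3 transporter, differed by 0.49 (SE 0.22), and its r with that mean was 0.30. Of 16 regulators of flux 14 were tested, with 8 higher and 6 lower and 0 at an unadjusted p under 0.05. Pdk3, a kinase that shuts pyruvate dehydrogenase, differed by 0.13 (SE 0.066), and Pfkfb3, which makes an activator of phosphofructokinase, by 0.28 (SE 0.17). The highest r with Gapdh among the 14 were those of Epas1, a hypoxia-inducible factor, at 0.76 and Pfkfb4 at 0.53, where the median was 0.062. Hif1a, another such factor, named after its values were seen, had an r of 0.071.

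Of the hypoxia-induced genes outside glycolysis, 13 of the 14 tested (17 listed) had an r of 0.81 (Plod2) to 0.98 (P4ha1) with the mean of the 9 enzymes. P4ha2, highest in PBS tumor 4 where most of the enzymes were lowest, had an r of -0.21; these 3 genes were named after their values were seen. By sign all 14 were higher in PIIO-1 tumors, against 51.1% of all genes, with a median difference of 0.35. At an unadjusted p under 0.05 limma counted 5, against 5.63% of all genes, and 0 passed after adjustment. Because 13 of them vary together, their signs are not separate observations. Vegfa, the growth factor of blood vessels, stood at 7136, 4889, 8810.0, 6449 and 7914 in PIIO-1 tumors, against 4501, 5249, 5083, 3320.6 and 6032 in PBS tumors. The groups overlapped through PIIO-1 tumor 2, and the difference was 0.54 (SE 0.17). Ddit4, a stress-induced brake on mTOR, differed by 0.38 (SE 0.11). The median r of the list with the mean of the 9 enzymes was 0.94, where the median over all genes was -0.011 and 1.78% of genes reached 0.8. Its median r with Gapdh was 0.10. Mxi1 and Kdm3a, the members of the list most like Gapdh, had an r of 0.29 and 0.25 with it.

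Of the pentose phosphate genes 7 of 7 were tested, with 5 higher and 2 lower by sign, 0 at an unadjusted p under 0.05 and a median difference of 0.043. G6pdx, the entry enzyme of that branch, differed by -0.11 (SE 0.064) and Taldo1 by 0.10 (SE 0.094). Of the gluconeogenesis genes 4 of 7 were tested, 2 in each direction by sign, again with 0 at an unadjusted p under 0.05; Pck2 differed by -0.13 (SE 0.15).

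By the rule for likeness, the genes whose levels tracked Gapdh most closely over the 10 tumors were Zfp653 (r 0.85), Rpusd4 (0.85), Ints12 (0.81), Ankrd42 (0.80), Lmbrd1 (0.80) and Supt5 (0.79). None of the 9 other enzymes came near these values. All 6 varied little, with a highest tumor 1.09-fold (Supt5) to 1.35-fold (Ankrd42) above the lowest. Zfp653, for example, ran from 445 to 525 in PIIO-1 tumors and from 418 to 527 in PBS tumors. The most opposite were Ttl (r -0.90), Zfp873 (-0.82), Rrp1b (-0.82) and Ankrd26 (-0.81). These 10 genes were picked as the extremes of the table, so their r is a description.

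Markers of other cells were set beside both patterns. The mean log2 values of the 14 marker lists had an r with Gapdh between -0.30 (cycling cells, 6 of 6 tested) and 0.44 (adipocytes, of which only Fabp4 was tested). For the mean of the 9 enzymes the highest were epithelium at 0.71 and keratinocytes at 0.69, and the lowest was leukocytes at -0.40. The keratinocyte list rested on Krt5 and Krt14. Single genes of the epithelium list followed the enzymes less, with a median r of 0.37 over the 6 tested. Beside the difference of Hk2, all 5 red blood cell genes were higher in PIIO-1 tumors with an unadjusted p under 0.05 by limma, against 2.86% of all genes. After adjustment 0 passed. These genes mark the same cells, so they are not separate observations. Their sum ran from 8372 to 58643 in PIIO-1 tumors, against 5488 to 12848 in PBS tumors, so the groups overlapped. The part of cell makeup in these patterns was not tested. With PIIO-1 5 and PBS 4 both left out, the difference of Hk2 was 0.25 and that of Gapdh -0.58.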

How the data were processed

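Bulk RNA of 10 whole MB-49 tumors was measured. Per the submitters' processing notes, HISAT2, featureCounts, DESeq2 and build GRCm38 were used, with version, annotation and strand setting not given in the sources used here. What the authors deposited are gene counts scaled by DESeq2 (a signal without negative values), per the notes and the table's name, for 24202 symbols. Groups follow the treatment label; sample titles call the antibody group a4D3. Dividing a column by its smallest step, 0.817 to 1.56 normalized counts per read, recovered whole reads for 100% of values within 0.001 read, so 3 reads are worth 2.45 to 4.68 normalized counts. No library duplicated another.

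The log2(value + 1) of each gene with a mean of 10 or more (16767 genes) entered limma 3.58.1 (R 4.3.3, intensity trend, two-sided, Benjamini-Hochberg over all genes, threshold 0.05); this scale understates the change of low genes. The limma step was tested on simulated data. Recovered reads of the same genes entered edgeR 4.0.16 by quasi-likelihood and, by Wald test without independent filtering, DESeq2 1.42.0. Correlations over 10 tumors are descriptions without p.

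The enzymes, gene lists and tests were chosen with earlier results of these data known. Named genes are the enzymes, the 2 genes of each list with the smallest p and the 2 with the highest r with Gapdh, the 6 genes with the highest and 4 with the lowest r with Gapdh (mean of at least 50, no unnamed gene models), the reference genes, and copies of an enzyme by their counts; 1 reference gene is not reported here. Copies come from aligning the Gapdh transcript to GENCODE M21 transcripts. Tried in turn were pseudocounts of 0.5 and 5, an unfiltered table, a mean of at least 50, scaling by TMM or upper quartile, limma untrended or array-weighted, a block on replicate number, and omission of single tumors. Omitting PIIO-1 5 with PBS 4, and summing copies with Gapdh, were chosen after seeing the data.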

Additional observations from a re-analysis of the deposited data

Results flagged for a closer look

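Bpgm, which makes the bisphosphoglycerate that lowers the oxygen affinity of hemoglobin in red blood cells, stood at 301, 287, 361, 350.3 and 623 normalized counts in PIIO-1 tumors 1 to 5, against 363, 306, 326, 304 and 298 in PBS tumors 1 to 5. PIIO-1 tumor 5, at 623, lay apart from its group by Dixon's gap test. Both groups of 44 named genes were examined, 88 groups in all, and chance alone flags about 5% of groups.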

How the results depend on the processing

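Across the alternatives run, 0 of the 10 enzymes passed at an adjusted p under 0.05 by limma, edgeR or DESeq2. Over all genes the count passing was 0 except under DESeq2, which called 3. The number of genes at an unadjusted p under 0.05 was 944; leaving out single tumors gave 625 (PIIO-1 5 omitted) to 1657 (PIIO-1 1 omitted), and omitting both PIIO-1 5 and PBS 4 gave 612. Of 220 differences recomputed for the 10 enzymes, 2 reversed: Aldoa to -0.014 without PBS tumor 4, and Gapdh to 0.011 without PIIO-1 tumor 4, where the cause was not tested. With single tumors left out the difference of Gapdh ran from -0.73 to 0.011, that of Aldoa from -0.014 to 0.11 and that of Hk2 from 0.29 to 0.44. The SD of Gapdh ran from 1.05 to 1.20 and its range from 6.59-fold to 8.80-fold with single tumors left out; with near-identical copies summed they were 0.68 and 3.78-fold. The median r of the 9 enzymes with Gapdh was -0.21 (PIIO-1 3 omitted) to 0.22 (PIIO-1 1 omitted), and was 0.24 both with the copies summed and without the 2 tumors farthest from the median of Gapdh. The median r of the 36 pairs among the 9 ran from 0.79 to 0.90. With the replicate number as a block, 0 genes passed, 885 had an unadjusted p under 0.05 and 9 of 10 enzymes were higher by sign, as without it. Deviations of same-numbered tumors correlated between -0.21 and 0.095, so no pairing by number was seen, though this check could miss a weak one. The intervals given are not adjusted for the number of genes tested. With 5 tumors a group, even the difference of Hk2 (0.35), whose interval lay above 0, did not pass after adjustment. A lack of calls therefore does not show a lack of difference.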
